A study of Rattus norvegicus with 12 samples.

Results

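The let-7 and miR-98 family was examined in rat heart as the 8 mature 5p miRNAs rno-let-7a-5p, rno-let-7b-5p, rno-let-7c-5p, rno-let-7d-5p, rno-let-7e-5p, rno-let-7f-5p, rno-let-7i-5p and rno-miR-98-5p, taken by name from the 758 miRNAs of the array. The names alone decided which miRNAs were members, and the prefix and the 5p suffix are left out below. The 8 members were detected on all 12 arrays and all 8 entered the tests. The study asked which miRNAs change in chronic heart failure after myocardial infarction and under treatment with Yiqifumai Injection (YQFM), an injection made from ginseng, ophiopogon and schisandra. MiRNAs were measured with 1 single-colour Agilent rat miRNA array per sample in 3 groups of 4 samples from male Wistar rats. The Sham group had the operation without ligature and received physiological saline. The MI group, called chronic heart failure in the sample labels, had the left anterior descending coronary artery tied and received saline. The YQFM group had the same ligation and received YQFM at 5 mg/kg per day, and all injections were intraperitoneal over 28 days. Tissue came from the left ventricle near the infarct, so each sample held muscle, fibroblasts, vessels and blood cells together. In such tissue, fewer cells of a type and less RNA per cell cannot be told apart.

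The let-7 miRNAs are a family of small regulatory RNAs found across animals. A miRNA guides the silencing complex to messenger RNAs mainly through its seed, the bases near its 5′ end, so members with the same seed can bind many of the same messages. The family accumulates as cells differentiate and is abundant in adult tissues, the heart among them. Let-7 is best known for holding down growth-promoting genes such as RAS, HMGA2 and cyclins, and its maturation is blocked by the RNA-binding protein LIN28.

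The mature sequences, from the RefSeq table for the GRCr8 rat genome, held all 8 members. They are shown because the members differ by few bases, which bears on how separately the probes can measure them. The capitals mark the seed, bases 2 to 8 from the 5′ end.
let-7a: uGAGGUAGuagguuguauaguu
let-7b: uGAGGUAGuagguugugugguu
let-7c: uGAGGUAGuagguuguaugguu
let-7d: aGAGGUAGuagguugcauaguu
let-7e: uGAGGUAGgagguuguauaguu
let-7f: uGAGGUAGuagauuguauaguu
let-7i: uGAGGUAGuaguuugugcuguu
miR-98: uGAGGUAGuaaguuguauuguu

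Each member was 22 bases long and carried the seed GAGGUAG. Counted from the 5′ end, with the let-7a base first, let-7c differed from let-7a by A19G, let-7e by U9G and let-7f by G12A. Let-7b differed by A17G and A19G, let-7d by U1A and U16C, and miR-98 by G11A and A19U. Let-7i stood farthest from let-7a, with G12U, A17G, U18C and A19U. Among the 685 miRNAs of the array with a mature sequence in the table, 1 further miRNA, let-7g-5p (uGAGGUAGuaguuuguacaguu), had the same seed.

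Each member was read by 2 probes, 16 in all, of 18 to 22 bases. The probes were complementary to the miRNA from a base between 1 and 5 through base 22, the 3′ end. For let-7a, let-7b, let-7c, let-7d, let-7e and let-7f, each probe was 1 mismatch away from another member over the stretch it covered. The nearest member was 3 mismatches away for the let-7i probes and 2 for the miR-98 probes. The longer probe of a member was the brighter of the pair, with a mean ratio of long to short from 1.46 for miR-98 to 7.80 for let-7f. Brightness therefore depended on probe length, and signals of different members are not compared as amounts. The MI against Sham difference had the same sign in both probes of 8 of 8 members, and the probes of a pair differed in it by at most 0.07 on the log2 scale. Cross-binding between members was not tested.

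The array annotation, in build rn4, placed let-7a at chr17:22119781-22119800, let-7f at chr17:22120143-22120163 and let-7d at chr17:22121911-22121928, all near each other. A further copy of let-7a was placed at chr8:44525787-44525806, and a further copy of let-7f at chrX:41376951-41376971, close to miR-98 at chrX:41377562-41377582. Let-7c at chr7:123700806-123700824 and let-7b at chr7:123701215-123701232 were neighbours, and let-7c had a further copy at chr11:16398282-16398300. Let-7i was placed at chr7:62755367-62755386 and let-7e at chr1:56487152-56487169. In the RefSeq gene table (GRCr8), the X-linked let-7f copy and miR-98 lie inside the gene Huwe1, which encodes a ubiquitin ligase. The let-7e precursor lies inside Spaca6 and beside miR-99b and miR-125a. Copies of a mature miRNA cannot be told apart by the probes.

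The arrays were alike in quality. Saturated spots were absent, and 24.45% to 31.5% of the spots of an array stood well above background. The muscle markers miR-1-3p, miR-133a-3p and others gave a summed scaled signal of 9208 to 13410 on every array, although miR-208b-3p, 1 of the 6 listed, was not detected. All of MI replicates 1 to 3 lay on slide 1, MI replicate 4 and YQFM replicate 1 on slide 2, and the 4 Sham arrays with YQFM replicates 2 to 4 on slide 3. Since MI and Sham arrays never shared a slide, slide and group cannot be told apart in their comparison without going through the YQFM arrays. The source names of MI replicate 4 and Sham replicate 4 give another group than their titles, descriptions and group entries, which were used here.

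The family was highest on 3 arrays of the MI and YQFM groups and on no Sham array. On the other 9 arrays the MI, YQFM and Sham groups overlapped. All values below are log2 of the scaled signal, the background-subtracted intensity divided by the 75th percentile of its array. The mean of the 8 members was 9.02, 8.70, 8.86 and 8.95 on Sham replicates 1 to 4. It was 9.31, 9.15, 8.83 and 8.91 on MI replicates 1 to 4. It was 9.40, 8.73, 8.85 and 8.72 on YQFM replicates 1 to 4. YQFM replicate 1, MI replicate 1 and MI replicate 2 were thus above the 9 others, and each group overlapped both others. YQFM replicate 1 lay on slide 2 and the 2 MI arrays on slide 1, while slide 3, with all Sham arrays, held none of them. These arrays were set apart after their values were seen, and the part of the slide was not tested. The group means were 8.88 ± 0.14 for Sham, 9.05 ± 0.22 for MI and 8.93 ± 0.32 for YQFM rats (SD, n = 4). The members took 9.02% to 13.97% of the signal of all miRNAs on an array, and the same 3 arrays held the highest shares, of 12.05%, 12.63% and 13.97%.

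**Figure D1:**
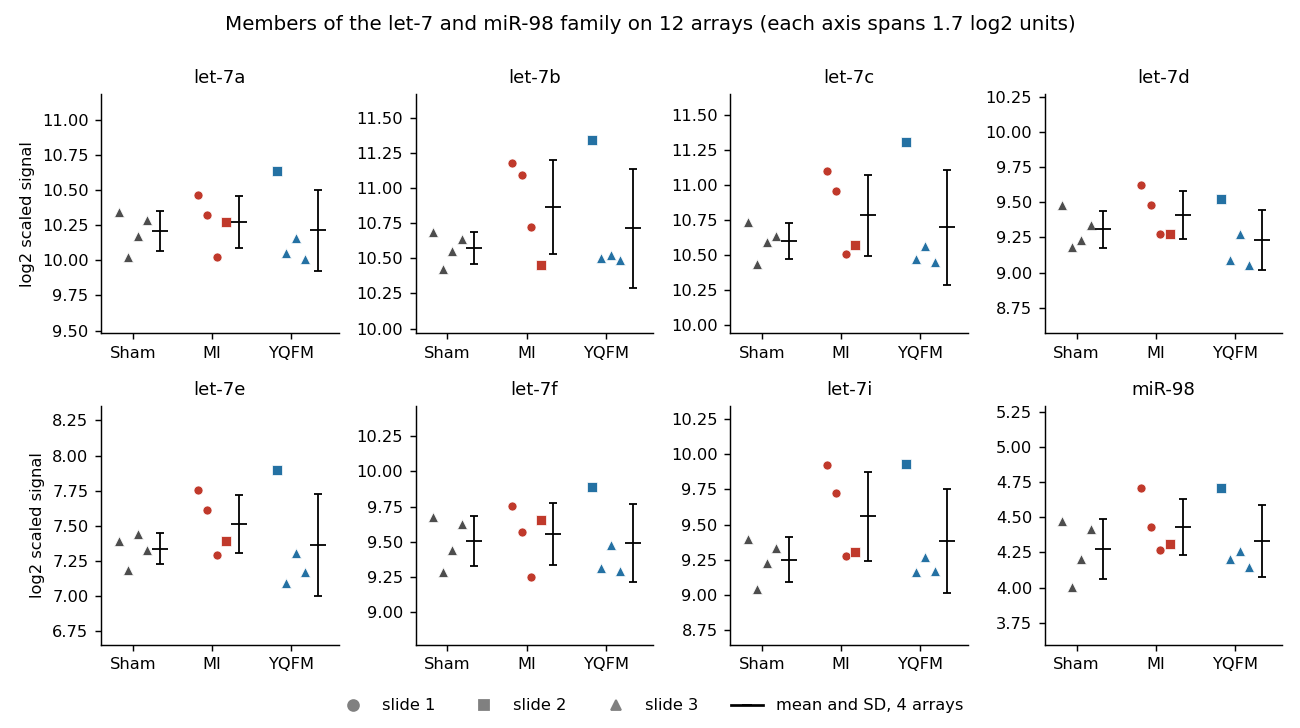
Log2 scaled signal of each member (y axis, a span of 1.7 log2 units in every panel) in the Sham, MI and YQFM groups (x axis), 1 point per array, the point shape giving the slide and the black bars the mean and SD of 4 arrays. In each panel YQFM replicate 1 and MI replicate 1 lie at or near the top, and the groups overlap.

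The miRNA markers of fibroblasts were highest on the same 3 arrays. The 4 listed fibroblast markers (miR-21-5p, miR-199a-3p, miR-199a-5p and miR-214-3p, all linked to scar-forming cells and fibrosis) were detected on every array. Their summed scaled signal was 1543 on YQFM replicate 1, 1104 on MI replicate 1 and 932.1 on MI replicate 2, against 379.6 to 789.1 on the other 9 arrays. By group it spanned 379.6 to 561.3 in Sham, 472.6 to 1104 in MI and 487.5 to 1543 in YQFM. Over the 12 arrays its log2 value had r = 0.89 and rho = 0.69 with the family mean, and r = 0.92 with group means removed, as a description of arrays that share their scaling. Without the 2 arrays farthest from the median of the markers, YQFM replicate 1 and MI replicate 1, r was 0.68. MI replicate 2 was still included there, and the relation over the other 9 arrays alone was not tested. For the muscle markers r was -0.01. For the endothelial markers, miR-126a-3p and miR-126a-5p, r was 0.73, with sums of 562.6 to 733.3 in Sham, 707.0 to 941.4 in MI and 574.9 to 711.7 in YQFM. The leukocyte markers gave r = 0.49 with 3 of 5 detected on every array and miR-142-3p and miR-142-5p on none, and the erythrocyte markers r = 0.08 with 1 of 3 on every array and miR-144-3p on none. The part of these cells in the members' values was not tested.

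**Figure D2:**
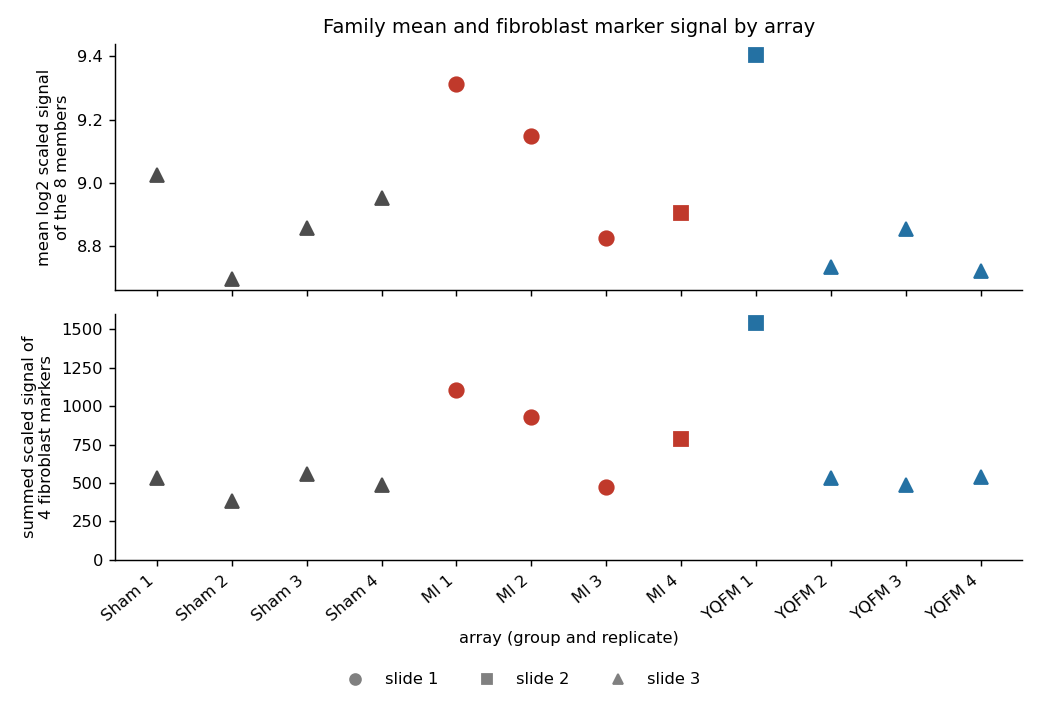
Mean log2 scaled signal of the 8 members (top) and summed linear scaled signal of 4 fibroblast markers (bottom) on each of the 12 arrays, coloured by group and shaped by slide. YQFM replicate 1, MI replicate 1 and MI replicate 2 are highest in both, at 9.40, 9.31 and 9.15 for the family and at 1543, 1104 and 932.1 for the markers.

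MI was set against Sham to ask what infarction changed. The 8 members had MI means above the Sham means, by 0.05 to 0.31 on the log2 scale with a median of 0.17, and none of the differences passed the test. The median over the 263 miRNAs tested was -0.04. The median of the members was 0.07 without MI replicate 1 and 0.095 without Sham replicate 2, with 7 of 8 members higher in MI in each case. The median over all tested miRNAs fell as well, to -0.11 in both cases. The members' median was 0.35 with the total gene signal, 0.40 with the brightest probe of each miRNA and 0.26 with the percentile taken over all miRNAs. That of all tested miRNAs was 0.10, 0.14 and 0.04 in the same order. Of the 8 members 0 were called by limma at an adjusted p under 0.05, where 7.22% of all tested miRNAs were called, 1 of them higher and 18 lower in MI. At an unadjusted p under 0.05 the count was again 0 of 8, against 29.3% of all tested miRNAs. The MI and Sham arrays overlapped in all 8 members, while they did not overlap in 12.2% of all tested miRNAs.

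Let-7i, which differs most from let-7a in sequence, had the highest MI to Sham ratio of the family. Its values were 9.40, 9.04, 9.23 and 9.33 in Sham. They were 9.93, 9.72, 9.27 and 9.31 in MI. They were 9.93, 9.16, 9.27 and 9.17 in YQFM. MI replicates 1 and 2 and YQFM replicate 1 exceeded every Sham array, and the other arrays fell among the Sham values. The MI to Sham ratio was 0.31 on the log2 scale (SE 0.20, limma adjusted p = 0.325), a fold of 1.24 with a 95% interval of 0.914 to 1.67.

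Let-7b and let-7c, encoded side by side on chromosome 7, were with let-7i the members with the widest spread within groups. Let-7b was 10.69, 10.42, 10.55 and 10.64 in Sham. It was 11.17, 11.09, 10.72 and 10.46 in MI. It was 11.34, 10.50, 10.52 and 10.49 in YQFM. In MI, replicates 1 to 3 lay above all Sham arrays and replicate 4 lay near the lowest. The MI to Sham log2 ratio of let-7b was 0.29 (SE 0.21, limma adjusted p = 0.387). Let-7c was 10.74, 10.44, 10.60 and 10.64 in Sham, 11.10, 10.96, 10.51 and 10.57 in MI, and 11.31, 10.47, 10.57 and 10.45 in YQFM. MI replicates 1 and 2 and YQFM replicate 1 again stood above the rest, and the MI to Sham log2 ratio was 0.18 (SE 0.20, adjusted p = 0.619).

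Let-7a and let-7f, which share the cluster on chromosome 17 with let-7d, had MI means nearest to the Sham means. Let-7a was 10.34, 10.02, 10.17 and 10.29 in Sham, 10.47, 10.32, 10.03 and 10.27 in MI, and 10.63, 10.05, 10.16 and 10.01 in YQFM. Let-7f was 9.67, 9.29, 9.44 and 9.63 in Sham, 9.75, 9.57, 9.25 and 9.66 in MI, and 9.89, 9.31, 9.48 and 9.29 in YQFM. For both, MI replicate 1 and YQFM replicate 1 lay above every Sham array and the other arrays fell within or near the Sham range. The MI to Sham log2 ratios were 0.07 for let-7a (SE 0.15, adjusted p = 0.837) and 0.05 for let-7f (SE 0.16, adjusted p = 0.890), by limma.

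Let-7d was 9.48, 9.18, 9.23 and 9.34 in Sham, 9.62, 9.48, 9.27 and 9.27 in MI, and 9.52, 9.09, 9.27 and 9.06 in YQFM. Let-7e was 7.39, 7.19, 7.44 and 7.33 in Sham, 7.75, 7.61, 7.29 and 7.40 in MI, and 7.90, 7.09, 7.30 and 7.17 in YQFM. MiR-98, whose signal was closest to the floor of 2.38, was 4.47, 4.00, 4.21 and 4.42 in Sham, 4.71, 4.43, 4.27 and 4.31 in MI, and 4.71, 4.20, 4.26 and 4.15 in YQFM. The groups overlapped for each of the 3. Their MI to Sham log2 ratios were 0.11, 0.17 and 0.16, with limma adjusted p of 0.669, 0.553 and 0.563. Exact two-sided permutation tests of single members gave p from 0.200 to 0.771 in this comparison, where 4 against 4 arrays allow no p below 0.0286.

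The 95% intervals of the 8 ratios reached at widest from -0.30 to 0.75 on the log2 scale, or from 0.813-fold to 1.68-fold. A 2-fold change of any member between MI and Sham lay outside the intervals of this fit. With the slide as a block, the 8 MI to Sham ratios were all below 0, with a median of -0.57 and a range of -0.96 to -0.38. The median over all tested miRNAs was then -0.18. In that fit the comparison rests on slide 2, which holds 1 MI and 1 YQFM array, and on slide 3. Without the 2 arrays whose labels conflict, the ratios ran from 0.06 to 0.44 and 0 of 8 members were called. Of the 263 miRNAs tested, 58 were called in that fit.

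**Figure D3:**
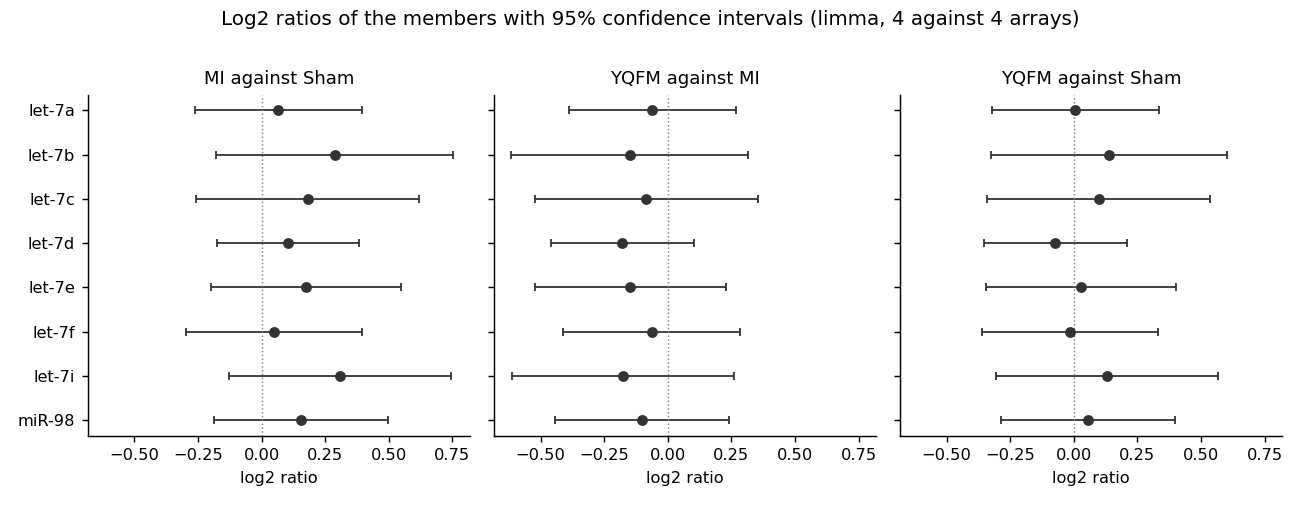
Log2 ratio of each member (x axis) with its 95% confidence interval in the 3 comparisons, from limma on 12 arrays, 4 per group. Every interval includes 0, and the MI against Sham ratios lie between 0.05 and 0.31.

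YQFM was set against MI to ask whether treatment moved the miRNAs. The 8 members had YQFM means below the MI means, by log2 ratios from -0.18 for let-7d to -0.06 for let-7a with a median of -0.12, against -0.01 over all tested miRNAs. Limma called 0 of 8 members, and the share called among all tested miRNAs was 0%. At an unadjusted p under 0.05 the count was 0 of 8 against 19% of all tested miRNAs, and the groups failed to overlap in 0 of 8 members against 6.46%. Adjusted p of the members ran from 0.517 to 0.899 and exact permutation p from 0.286 to 0.771. The comparison shares its MI arrays with the comparison against Sham, so the opposite signs of the ratios are not separate evidence.

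YQFM replicate 1 decided much of the YQFM mean. Without it the median log2 ratio of the members against MI was -0.28, and without MI replicate 1 it was -0.03 with 3 of 8 members above 0. The medians over all tested miRNAs were then -0.05 and 0.05. On slide 2, which holds 1 MI and 1 YQFM array and no Sham array, YQFM replicate 1 exceeded MI replicate 4 in 8 of 8 members, by 0.23 for let-7f to 0.89 for let-7b. A comparison of 1 array with 1 array has no replicate check. Without scaling between arrays, the sign of the ratio changed for let-7a, let-7c, let-7f and miR-98, and in the authors' processed values it changed for all 8 members. In these values the median of all tested miRNAs moved as well, to 0.20, and the members stayed below it by 0.14.

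YQFM against Sham compared treated hearts with hearts without infarction. The ratios ran from -0.07 for let-7d to 0.14 for let-7b, with 6 of 8 above 0, a median of 0.04, and a median of -0.11 over all tested miRNAs. Limma called 0 of 8 members, against 0% of all tested miRNAs, and at an unadjusted p under 0.05 it was 0 of 8 against 5.7%. The groups failed to overlap in 0 of 8 members against 6.08%. The median of the members fell below 0 without YQFM replicate 1, to -0.12, and without Sham replicate 2, to -0.029. The medians over all tested miRNAs were then -0.13 and -0.14. On slide 3, where the 3 YQFM arrays other than replicate 1 can be compared with the 4 Sham arrays, 8 of 8 members were lower in YQFM, by log2 differences from -0.17 for let-7d to -0.05 for let-7i. Their median of -0.12 lay near the median over all tested miRNAs on that slide, -0.13, so the lower values were not particular to the family. Exact permutation p for these within-slide differences ran from 0.114 to 0.6, and 3 against 4 arrays allow no p below 0.0286.

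The members varied together from array to array. Over the 12 arrays, the 28 pairs of members had a median Pearson r of 0.89, from 0.69 to 0.98, and a median Spearman rho of 0.87. With group means removed the median r was 0.92, and without the 2 arrays farthest from the median it was 0.81. Over all 20100 pairs of the 201 miRNAs detected on every array, the median r was 0.15. These values describe arrays that share their scaling and probes that share sequence. The 4 pairs that differ by 1 base had a median r of 0.95, the 7 pairs with 2 differences 0.88, the 9 pairs with 3 differences 0.87 and the 6 pairs with 4 differences 0.90. The pair with 6 differences, let-7d and let-7i, had r = 0.89. The spread of the members was near that of other miRNAs, with a median SD within groups of 0.24 for the 8 members, from 0.18 to 0.32, and of 0.24 for the 201 miRNAs.

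**Figure D4:**
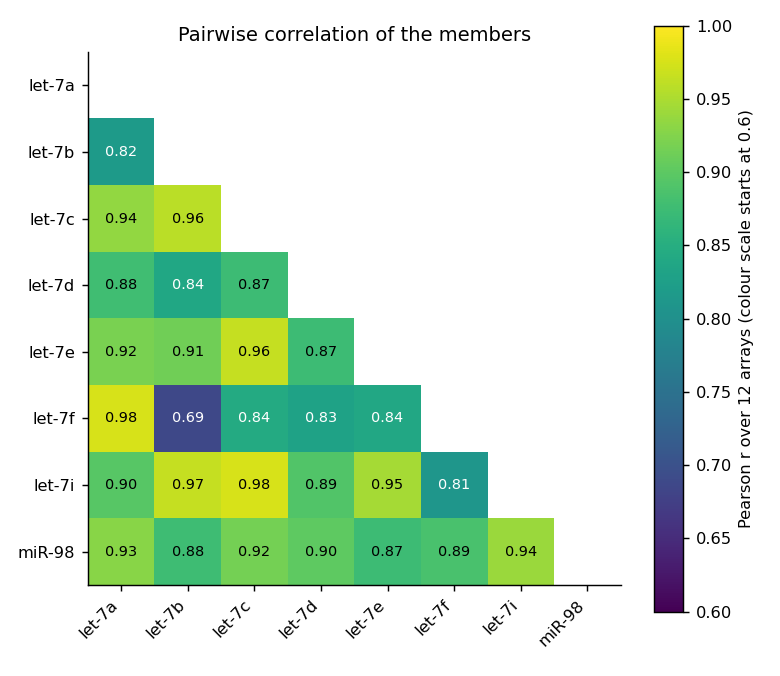
Pearson r between the log2 scaled signals of each pair of members over the 12 arrays, on a colour scale that starts at 0.6. Let-7a with let-7f has r = 0.98, and let-7b with let-7f the lowest value, 0.69.

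Let-7a and let-7f, 1 base apart, kept the steadiest distance of all pairs, with let-7a above let-7f by 0.62 to 0.78 on the log2 scale across the arrays. Both have a copy in the chromosome 17 cluster and a further copy elsewhere, and the probes cannot tell the copies apart. Let-7b and let-7f kept the least steady one. Let-7b exceeded let-7f by 1.01, 1.14, 1.11 and 1.01 in Sham. It did so by 1.42, 1.53, 1.48 and 0.80 in MI. It did so by 1.45, 1.19, 1.04 and 1.19 in YQFM. The Sham arrays lay close together, MI replicates 1 to 3 and YQFM replicates 1, 2 and 4 lay above all of them, and MI replicate 4 lay below. The pair was singled out after its values were seen, so no test is given. Of these arrays, MI replicates 1 to 3 make up slide 1, and the part of the slide was not tested.

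A difference within an array does not depend on the scaling between arrays, so each member was also set against its family. Relative to the mean of the 8 members, limma called 0 of 8 in MI against Sham, where 1.14% of all tested miRNAs were called, and 0 of 8 in YQFM against MI and in YQFM against Sham, where 0% and 0% were called. The members' relative log2 ratios in MI against Sham ran from -0.12 for let-7f to 0.14 for let-7i, with limma adjusted p from 0.397 to 0.962. In this fit limma draws each SE toward the spread of all tested miRNAs around the family mean. The SEs of the members were 0.11 to 0.12, which can be larger than a member's own arrays give. The absence of calls therefore cannot decide whether the members changed unequally. Without MI replicate 4 the count over all tested miRNAs in MI against Sham was 72 and without YQFM replicate 1 it was 61, with 0 of 8 members called in both.

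Let-7i stood out by its order. Its difference from the mean of the other 7 members was 0.43, 0.39, 0.42 and 0.44 in Sham. It was 0.70, 0.66, 0.51 and 0.46 in MI. It was 0.60, 0.49, 0.47 and 0.51 in YQFM. Every MI array and every YQFM array lay above every Sham array, although MI replicate 4 did so by little. On this scale the groups did not overlap in 16.3% of all tested miRNAs in MI against Sham and in 4.94% in YQFM against Sham. The 1 of 8 members is near the share in the first comparison. Non-members were set against the mean of all 8 members, so these shares also hold any shift of the family itself. They are therefore not a strictly like background for a difference between members. The group means were 0.42 ± 0.02 (Sham), 0.58 ± 0.12 (MI) and 0.52 ± 0.06 (YQFM; SD, n = 4). The exact two-sided permutation p was 0.0286 in both the MI and the YQFM comparison with Sham, the smallest that these group sizes allow, among 8 members tested in each. The other 7 members overlapped between the groups in both comparisons, and in YQFM against MI 0 of 8 members failed to overlap, against 1.52% of all tested miRNAs. With quantile normalization the 2 exact p-values for let-7i were 0.0857 and 0.314, and with the brightest probe of each miRNA the MI against Sham value was 0.0857. The 2 comparisons share the Sham arrays, which all lie on slide 3. YQFM replicates 2 to 4, at 0.49, 0.47 and 0.51, lie on slide 3 too, and no MI array does. The part of the slide was not tested.

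**Figure D5:**
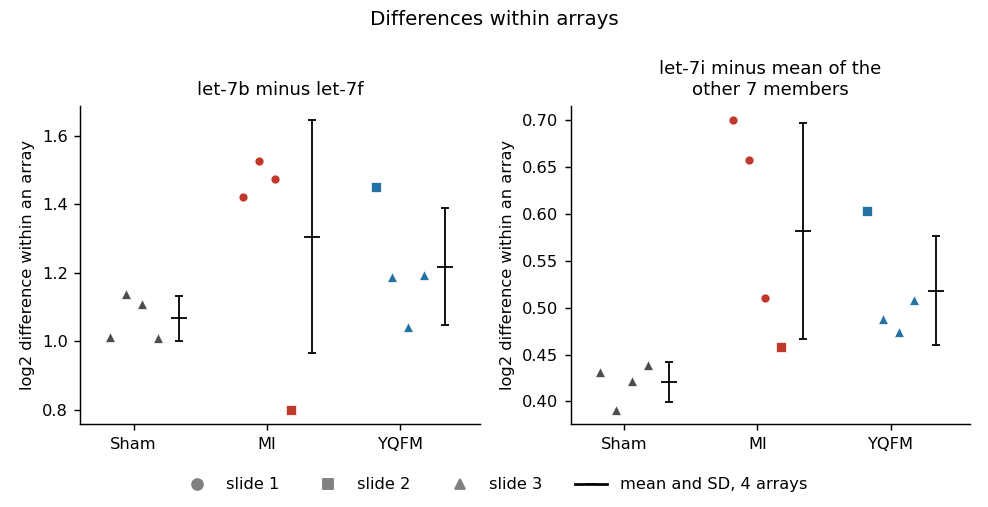
Log2 differences within an array (y axis) for let-7b minus let-7f and for let-7i minus the mean of the other 7 members, by group, 1 point per array, with the slide as the point shape and the mean and SD of 4 arrays as black bars. For let-7i every MI and YQFM point lies above the 4 Sham points of 0.39 to 0.44, and for let-7b minus let-7f the groups overlap.

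Let-7g-5p, the miRNA with the same seed outside the list, was also detected on every array. It was 9.09, 8.61, 8.75 and 8.98 in Sham, 9.21, 8.98, 8.74 and 8.91 in MI, and 9.13, 8.72, 8.86 and 8.64 in YQFM. The groups overlapped, and the MI to Sham log2 ratio was 0.10 (SE 0.15, limma adjusted p = 0.711). With group means removed it had r = 0.91 with the family mean over 12 arrays, the 8th highest of 193 other miRNAs.

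A miRNA precursor yields an opposite strand, the 3p arm, that is usually degraded. Of 11 named 3p arms of the members, 9 were on the array, and 8 of these were detected on no array. Let-7b-3p was detected on 10 arrays, all but MI replicates 2 and 3. It was 4.42, 4.25, 4.11 and 3.82 in Sham. It was 3.38, 2.93, 3.23 and 4.11 in MI. It was 3.81, 3.91, 4.17 and 3.42 in YQFM. On MI replicates 2 and 3 the signal was not well above background, so these 2 values only bound the level. MI replicate 1 lay below every Sham array and MI replicate 4 among them. With these values included, the MI to Sham log2 ratio was -0.74 (SE 0.24, limma adjusted p = 0.0747), the exact permutation p was 0.0571, and the call was not made. Without MI replicate 4, whose source name names the Sham group, the ratio was -0.97 with a limma adjusted p of 0.00538. With normexp background correction it was -0.07 with a limma adjusted p of 0.354, and with the slide as a block it was -0.02. The normexp correction adds an offset of 50 to each signal, while the scaled signal of let-7b-3p was 7.6 to 21.4. Such an offset draws the ratio of a dim miRNA toward 0, so the normexp value cannot decide whether the difference holds. Over 27 alternatives the adjusted p ran from 0.00538 to 1.

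Several members are encoded in clusters with miR-99, miR-100 or miR-125 miRNAs. All 5 listed partners were detected on every array. In MI against Sham 0 of 5 were called, against 7.22% of all tested miRNAs, and in YQFM against MI 0 of 5, against 0%. The MI to Sham log2 ratios were 0.23 for miR-99a-5p, 0.18 for miR-99b-5p, 0.31 for miR-100-5p, 0.02 for miR-125a-5p and 0.15 for miR-125b-5p, with a median of 0.18 beside 0.17 for the members. MiR-100-5p, from the cluster of the let-7a copy on chromosome 8, was 6.70, 6.33, 6.58 and 6.51 in Sham, 7.20, 6.95, 6.58 and 6.60 in MI, and 6.98, 6.34, 6.62 and 6.40 in YQFM. Its values overlapped between the groups, with MI replicates 1 and 2 and YQFM replicate 1 highest.

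The non-members most like the family mean over the 12 arrays, by Pearson r with group means removed among 193 miRNAs, were miR-100-5p (0.95), miR-23b-3p (0.95), miR-16-5p (0.95), miR-34a-5p (0.93) and miR-214-3p (0.93). MiR-34a is known as a target of p53, and miR-214 is also among the fibroblast markers above. Their MI to Sham log2 ratios were 0.31, 0.34, 0.32, 0.30 and 0.62, and 0 of 5 were called, against 7.22% of all tested miRNAs. MiR-214-3p was 7.21, 6.59, 7.16 and 6.83 in Sham, 7.93, 8.03, 7.21 and 7.10 in MI, and 8.59, 6.99, 6.94 and 7.04 in YQFM. The 3 highest values were again those of YQFM replicate 1 and MI replicates 1 and 2.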

How the data were processed

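The deposited scanner files hold, per the file headers, the processed intensity of each spot, which the authors obtained with Agilent Feature Extraction 10.7.1.1 after background subtraction with no scaling from array to array. Linear intensity values per miRNA, deposited as a second table, served as an alternative, and its columns were matched to samples by title. The methods name GeneSpring for the basic analysis.

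Control spots and outlier spots were left out. Signals were averaged over spots and then over probes, divided by the array's 75th percentile (taken over 201 miRNAs that every array detected), and rescaled by the mean of these percentiles, which ranged from 192.1 to 299.8. Values under 5.20, or 2.38 on the log2 scale, were set to that floor. A probe with over 50% of spots well above background was called detected. The 263 miRNAs detected on at least 2 of 4 arrays of a group were tested with limma 3.58.1 (R 4.3.3) on all 12 arrays, with Benjamini-Hochberg adjustment at 0.05. Single miRNAs had exact two-sided permutation tests. The limma procedure was tested on simulated data. Tables and figures used Python 3.11.15, pandas 2.3.3 and matplotlib 3.10.9.

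Named miRNAs were the 8 members, their 3p arms, cluster partners, others with the same seed, and the 5 non-members most like the family mean. The members were taken by name, and the family, the lists and the tests were chosen for study with earlier results of these data known. The number of arrays limits the precision. The labels number the samples of a group and do not state separate animals, so p-values measure the spread between these samples.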

Additional observations from a re-analysis of the deposited data

Results flagged for a closer look

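In groups of 4 arrays, the highest or lowest value was set apart from the nearest of the others by more than Dixon's 95% critical value in 3 of 33 sets of values examined, where chance alone gives about 1 in 20. In the YQFM group, YQFM replicate 1 was set apart as the highest array for let-7b-5p (11.34), let-7c-5p (11.31) and let-7i-5p (9.93). These 3 values come from 1 array, which also had the highest summed signal of the fibroblast markers (1543). The part of these cells was not tested.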

How the results depend on the processing

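In every alternative tried, 0 of 8 members were called in any of the 3 comparisons, with smallest adjusted p of 0.123 for MI against Sham, 0.148 for YQFM against MI and 0.490 for YQFM against Sham. The MI to Sham ratios kept their direction except as follows. With the slide as a block they were -0.49 for let-7a, -0.96 for let-7b, -0.84 for let-7c, -0.42 for let-7d, -0.65 for let-7e, -0.38 for let-7f, -0.68 for let-7i and -0.47 for miR-98, with a median of -0.57. With the slide as a random block, an alternative added after the data were seen, they were -0.17, -0.20, -0.23, -0.10, -0.16, -0.14, -0.086 and -0.097 in the same order, with a median of -0.15. Quantile normalization gave 0.00 for let-7a and -0.076 for let-7f. Leaving out 1 array moved let-7f between -0.025 and 0.15.

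The YQFM to MI ratios turned above 0 with the slide as a block, at 0.36, 0.89, 0.74, 0.25, 0.50, 0.23, 0.62 and 0.40 in the order above (median 0.45), and in the authors' processed values, at 0.13, 0.037, 0.10, 0.0091, 0.040, 0.12, 0.012 and 0.087. The slide as a random block gave 0.10 for let-7a, 0.25 for let-7b, 0.23 for let-7c, 0.10 for let-7e, 0.051 for let-7f, 0.13 for let-7i and 0.093 for miR-98. Without scaling, let-7a was 0.065, let-7c 0.041, let-7f 0.062 and miR-98 0.024, and quantile normalization gave 0.10 for let-7a and 0.010 for let-7c. Leaving out 1 array moved let-7a between -0.20 and 0.0079, let-7c between -0.29 and 0.021 and let-7f between -0.20 and 0.0034. The cause of these turns was not tested. The median of all tested miRNAs moved too. Against the values as reported it rose in MI against Sham by 0.19 with the brightest probe and 0.14 with the total gene signal. It rose in YQFM against MI by 0.11 without scaling and 0.21 in the authors' processed values, and in YQFM against Sham by 0.14 without scaling, 0.11 with the percentile over all miRNAs and 0.17 in the authors' processed values. In MI against Sham it was -0.18 with the slide as a block and -0.15 as a random block, beside -0.57 and -0.15 for the members. For YQFM against MI it was 0.008 and 0.025 in the same order, beside 0.45 and 0.10 for the members.

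The median r of the members with group means removed, 0.92, fell to 0.58 with quantile normalization and lay between 0.86 and 0.96 when 1 array was left out.

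The count of all miRNAs called in MI against Sham was 19. It was 3 with normexp, 3 with the percentile over all miRNAs, 2 with the brightest probe, 2 with quantile normalization, 7 without a filter, 7 among miRNAs detected on all arrays and 6 with the methods' t-test. It was 0 with the total gene signal, in the authors' processed values, without scaling, and with the slide as a block or a random block. It was 58 without the 2 arrays with conflicting labels, and 4 to 62 when 1 array was left out (62 without MI replicate 4). In YQFM against MI the count was 0, and it was 1 with the brightest probe, 2 with quantile normalization, 28 without the 2 arrays with conflicting labels, and 0 to 28 when 1 array was left out (28 without MI replicate 4 and 23 without YQFM replicate 1). Relative to the family mean the count was 3 in MI against Sham and ran from 0 to 72 when 1 array was left out. In YQFM against MI it was 0 and ran from 0 to 39, with 39 without YQFM replicate 1 and 12 without MI replicate 4. The members called stayed 0 of 8 in each. The replicate block, a fit with the replicate number as a block, gave 10 in MI against Sham and changed no call of a member. Same-numbered arrays correlated between -0.64 and 0.32 over 263 miRNAs in their deviations from group means. These correlations, taken over all tested miRNAs, cannot decide whether the numbers pair the samples. In each group replicate 1 had the highest family mean, at 9.02 in Sham, 9.31 in MI and 9.40 in YQFM. With the replicate block the SE of all 8 members in MI against Sham was smaller, for let-7i 0.15 against 0.20. The comparison of YQFM with Sham on slide 3 alone was added after the data were seen.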

Other observations

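MiR-352, ranked 6th among the 193 miRNAs by likeness to the family mean (r = 0.92 over 12 arrays with group means removed), was noticed after its values were seen. Its probe of 18 bases on the array, tactatgcaacctactac, differs from the let-7d probe of the same length, aactatgcaacctactac, by 1 base, A1T, counted from the 5′ end with the let-7d base first. MiR-352 was 3.66, 3.36, 3.71 and 3.71 on the Sham arrays, 4.09, 3.72, 3.48 and 3.67 on the MI arrays and 4.11, 3.63, 3.53 and 3.49 on the YQFM arrays. YQFM replicate 1, MI replicate 1 and MI replicate 2 were the 3 highest, as for the family. Its r with let-7d over the 12 arrays was 0.77. Cross-binding between the probes was not tested.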
